A study of Mus musculus with 7 samples.

Results

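The 28 genes described here make up the core circadian clock and its best known output factors, taken as a fixed list of gene symbols and followed in mouse hypothalamus. All 28 were measured, by 73 probe sets, among 18193 genes with 1 symbol on the Affymetrix mouse430_2 array. The arrays were 7 in number, 1 per sample. They comprised 4 from wild-type mice and 3 from mice labelled Creb-PomcCre-/-, in which the Pomc-Cre driver removes Creb from arcuate neurons of the hypothalamus. All mice were 3 months old, and each array held RNA of dissected hypothalamus. Per the labels the samples are biological replicates, without a statement on whether a sample holds RNA of 1 mouse or of several. The p-values below therefore measure the spread between these samples. The sources used here give neither the hour of dissection nor the alleles that the wild-type mice carried. The series asks which genes depend on Creb in the appetite-controlling neurons of the arcuate nucleus. Those neurons are a small part of the tissue that was hybridised.

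The mammalian clock is a feedback loop of transcription factors. CLOCK or its relative NPAS2 pairs with BMAL1, encoded by Arntl, and activates genes that carry an E-box, among them the Per and Cry genes, whose products then repress the pair. A further loop sets the REV-ERB repressors (Nr1d1, Nr1d2) against the ROR activators (Rora, Rorb) at a shared element that controls Arntl. The output factors DBP, TEF and HLF activate genes through the D-box, and NFIL3 opposes them there. In the hypothalamus the suprachiasmatic nucleus holds the master clock, while other nuclei run clocks of their own. CREB, the factor deleted here, binds the cyclic AMP response element (CRE) and is known for carrying light signals to Per1 in the suprachiasmatic nucleus.

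Values are log2 expression values as the authors deposited them, so that a difference of 1 is a change of 2-fold. Each gene is represented by its brightest probe set, and levels are compared within a gene only. Differences are knockout minus wild type with limma's standard error (SE). Adjusted p-values are Benjamini-Hochberg values from limma over all 18193 genes, with a threshold of 0.05. Array medians ran from 6.19 to 6.24. Of 8 measured hypothalamus markers, the peptide genes Pmch, Hcrt and Oxt read at least 12.02 on every array. Others were dimmer, such as Sim1 at 7.64 to 8.12 and Nkx2-1 at 5.50 to 5.80. Creb1 differed by -0.041 ± 0.052 (SE) and Pomc by 0.21 ± 0.24 (SE), neither past the threshold (limma, adjusted p = 0.787 and 0.765), and no value here checks the genotype labels. Xist read at least 12.26 on wild-type arrays 1 and 4 and knockout array 1, and at most 6.37 on the others, so that females stood in both groups.

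Wild-type arrays 2 and 3 stood apart in markers of the thalamus or the meninges, which neighbour the hypothalamus. A marker score is the median, over a list, of each gene's deviation from its mean over the 7 arrays. The score of 12 thalamus and habenula markers was 1.13 on wild-type array 2, against -0.45 to 0.28 on the other 6 arrays. For 15 meningeal and fibroblast markers it was 1.12 on wild-type array 3 and 0.35 on wild-type array 2, against -0.40 to -0.31 elsewhere. For 6 pars tuberalis and pituitary markers it was 0.21 on wild-type array 1 and -0.15 to -0.046 on the other wild-type arrays. On the knockout arrays that score was 0.097 to 0.16. Of these 6 markers 4 were higher in the knockout and 2 lower, 0 passed, and 1, Tshb, had an unadjusted p under 0.05 (limma). The score of the 8 hypothalamus markers was lowest on wild-type array 2, at -0.30, against -0.078 to 0.16 on the other 6 arrays. In tissue RNA, fewer cells of a type and less RNA per cell cannot be told apart.

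None of the 28 clock genes passed the threshold, against 2 of 18193 genes (0.0110%). Nor did any of their 73 probe sets, against 0.00666% of all 45037 probe sets. An unadjusted p under 0.05 was reached by 2 of the genes (limma), against 11.7% of all genes. One was lower, Arntl2 (6.12% of all genes), and one higher, Clock (5.60%). The same 2 were the members whose groups were fully separated, against 12.1% of all genes (6.05% lower and 6.09% higher). Each count was a smaller share of the members than of all genes. Of the 28 differences 23 were negative and 5 positive, with a median of -0.079, where 48.5% of all genes were negative and the median was 0.0036. Leaving out knockout array 2 brought the members' median to -0.039, and leaving out wild-type array 2 to -0.041. Groups separate more often with fewer arrays. Separated members numbered 5 without wild-type array 3 (16.6% of all genes), 5 without knockout array 1 (22.3%) and 7 without knockout array 3 (21.9%). With an unadjusted p under 0.05 there were 5 members without knockout array 1 (limma, 11.5% of all genes), 4 without knockout array 3 (10.5%) and 1 without knockout array 2 (8.13%). For 26 of the 28 members, leaving out a single array could move the difference by over 1.5 times or turn its sign. The exceptions were Arntl2 and Clock. The same count was not made over all genes, so it does not set the members apart from them.

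**Figure D1:**
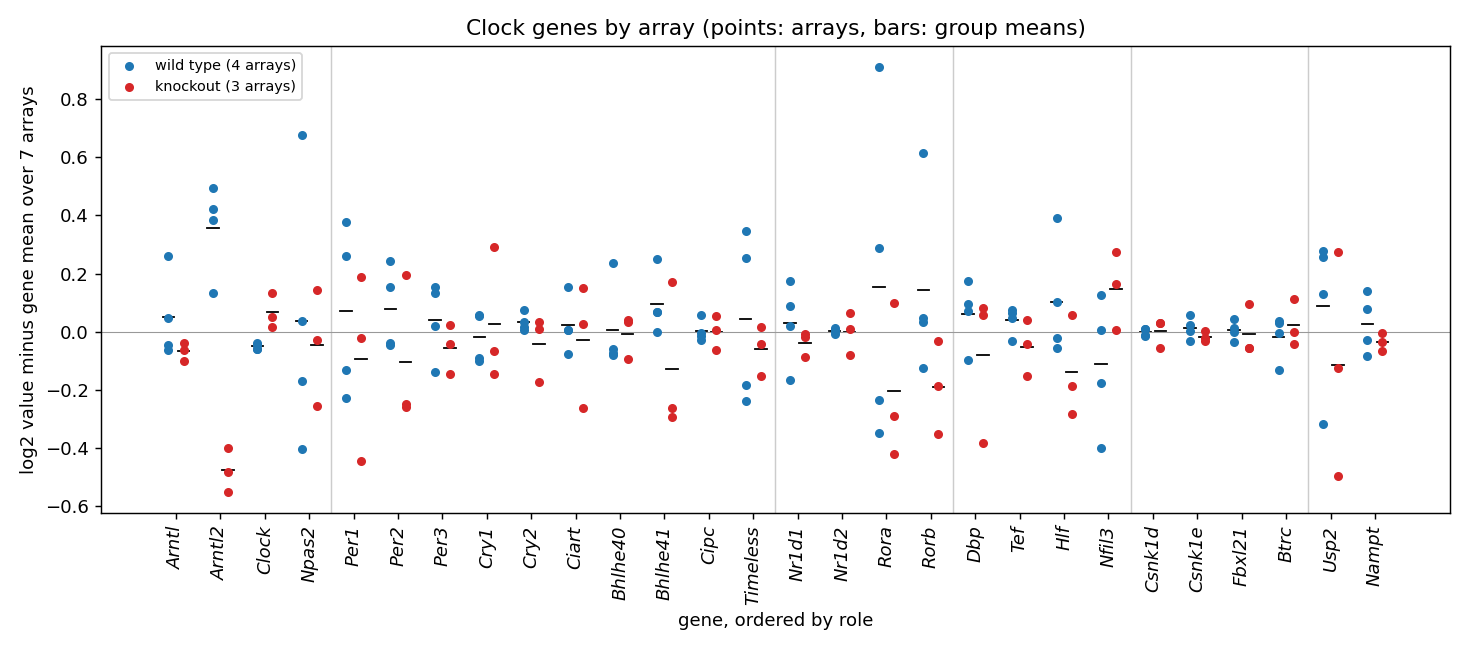
Log2 values of the 28 clock genes on the 7 arrays (vertical axis, each gene's mean over the arrays subtracted), with genes ordered by role. Points are arrays, 4 wild type in blue and 3 knockout in red, and bars are group means. Arntl2 is the gene with the widest gap between the groups, and Npas2, Rora, Rorb and Hlf have 1 high wild-type array.

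Arntl2, a paralog of Arntl whose product can pair with CLOCK, gave the largest difference. It read 6.66, 6.30, 6.59 and 6.55 on the wild-type arrays and 5.77, 5.68 and 5.62 on the knockout arrays. All 3 knockout arrays thus lay below all 4 wild-type arrays. The difference was -0.84 ± 0.096 (SE), or 0.560-fold, just outside the threshold (limma, adjusted p = 0.0616). Over the alternative settings that adjusted p ran from 0.0168 to 0.352. The difference passed without wild-type array 1 (adjusted p = 0.0435), without wild-type array 2 (0.0168) and with array weights (0.0417). A second Arntl2 probe set read 6.20, 6.22, 6.08 and 6.18 in wild type and 6.26, 5.98 and 6.06 in the knockout, with overlapping groups and a difference of -0.073 ± 0.085 (SE). The probe sets of the gene therefore disagreed in size, and their mean differed by -0.45. Arntl2 was 1 of 7 members whose mean lay under the median over genes, 7.57, where signal and background are hard to separate.

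Clock, which encodes the histone acetyltransferase partner of BMAL1, was close to constant within wild type. It read 9.51, 9.52, 9.51 and 9.53 on the wild-type arrays and 9.58, 9.70 and 9.62 on the knockout arrays, so the groups did not overlap. The step was 0.12 ± 0.042 (SE), or 1.08-fold, with an adjusted p of 0.358 (limma). Its other 3 probe sets differed by -0.0059, -0.040 and -0.024, each with overlapping groups, and the mean of all 4 by 0.012.

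Arntl and Npas2 shared a high value on wild-type array 2. Arntl read 8.32, 8.54, 8.21 and 8.23 in wild type and 8.17, 8.24 and 8.21 in the knockout. The groups overlapped, and the difference was -0.12 ± 0.081 (SE, limma adjusted p = 0.588), or -0.047 without wild-type array 2. Npas2, the neuronal paralog of Clock, read 6.59, 7.44, 6.36 and 6.80 in wild type and 6.51, 6.74 and 6.91 in the knockout. Its difference of -0.082 ± 0.23 (SE) was within the spread of the wild-type arrays and became 0.13 without wild-type array 2. Both Npas2 probe sets were highest on that array.

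**Figure D2:**
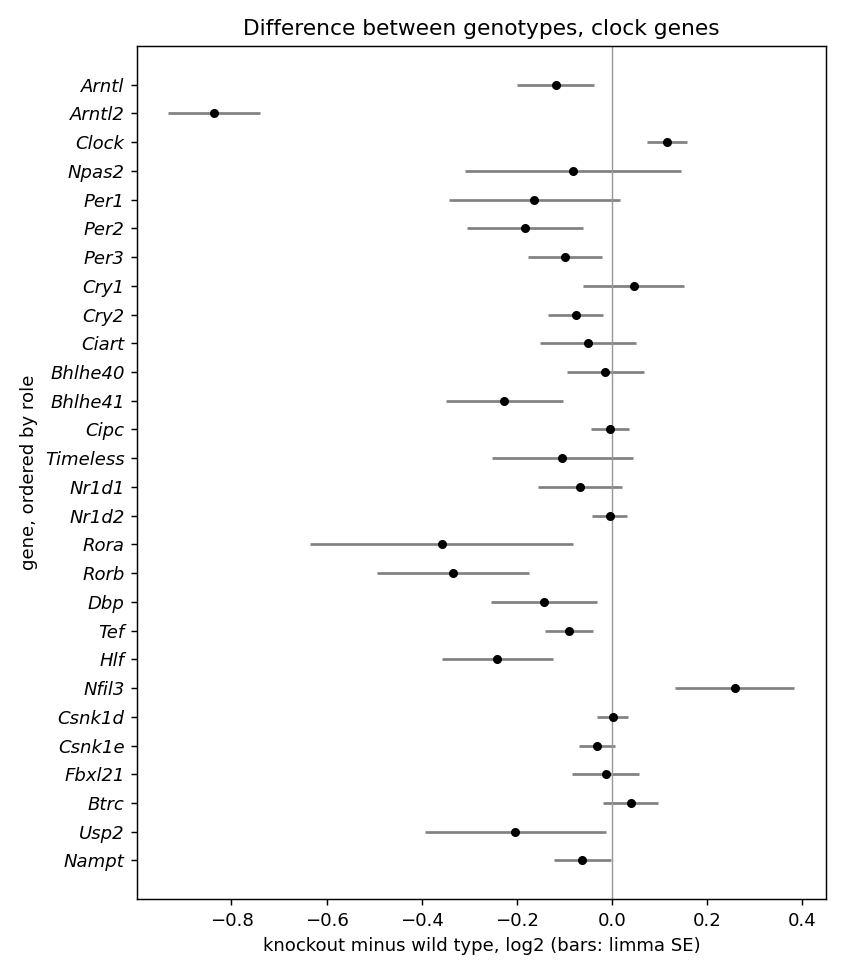
Difference between knockout and wild type for each clock gene on the log2 scale (horizontal axis, points, with bars of 1 limma SE), ordered by role. Arntl2 stands at -0.84, and the other 27 genes lie between -0.36 and 0.26.

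The repressors of the core loop were followed next, with the stretches of promoter that carry their clock or CRE motifs. Promoters were taken from RefSeq (GRCm38.p6) as 250 bases before to 50 after a start site. The table held 34 promoters for 24 of the 28 members, and Per2, Bhlhe40, Btrc and Csnk1d had no entry. The E-box CACGTG was found in 7.15% of 32851 promoters of that length and in 7 of the 34 member promoters. These belonged to 6 members (Bhlhe41, Ciart, Cipc, Cry1, Per1 and Tef). The short CRE form TGACG was found in 20.8% of promoters and in 12 of the 34 member promoters. These belonged to 10 members (Cipc, Cry1, Cry2, Csnk1e, Fbxl21, Hlf, Nampt, Nfil3, Per1 and Usp2). The short form also lies inside each full CRE. The D-box TTATGTAA was found in 0.938% of promoters and in 2 of the 34, those of Per3 and Timeless. The other D-box form searched, TTACGTAA, was found in 0.119% and in no member. The core of the ROR element, AGGTCA, was found in 16.3% of promoters and in 6 of the 34. Those were of Arntl, Clock, Nampt, Nfil3, Nr1d2 and Per1. Both strands were searched, and a match describes letters only. The stretches shown next run 5′ to 3′ on the strand of the gene and end before the start site. Capitals mark the E-box and the short CRE (Per1, Cry1), the E-box (Ciart) or the D-box (Per3). Per1 is at chr11:69098699-69098828 (plus strand) for one start and chr11:69099980-69100064 (plus) for another. Cry1 is at chr10:85185055-85185154 (minus), Ciart at chr3:95882229-95882384 (minus) and Per3 at chr4:151044776-151044910 (minus).
Per1, first start: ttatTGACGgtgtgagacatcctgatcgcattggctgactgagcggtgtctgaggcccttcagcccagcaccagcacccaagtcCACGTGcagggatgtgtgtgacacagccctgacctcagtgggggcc
Per1, other start: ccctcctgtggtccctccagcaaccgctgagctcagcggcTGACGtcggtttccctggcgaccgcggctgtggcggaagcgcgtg
Cry1: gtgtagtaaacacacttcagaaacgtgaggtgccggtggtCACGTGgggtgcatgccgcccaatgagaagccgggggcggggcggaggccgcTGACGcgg
Ciart: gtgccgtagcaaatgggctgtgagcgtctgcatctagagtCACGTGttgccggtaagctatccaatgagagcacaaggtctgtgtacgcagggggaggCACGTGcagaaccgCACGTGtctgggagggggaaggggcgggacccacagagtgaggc
Per3: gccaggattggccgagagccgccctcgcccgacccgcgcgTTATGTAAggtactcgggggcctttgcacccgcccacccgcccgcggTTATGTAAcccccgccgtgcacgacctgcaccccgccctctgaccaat

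Per1 carried an E-box and a short CRE before one start and a short CRE before the other, as the stretches above show. It read 9.22, 9.32, 9.71 and 9.82 in wild type and 9.43, 9.00 and 9.63 in the knockout. The knockout arrays lay among the wild-type arrays save for knockout array 2, which was lowest. Its difference was -0.16 ± 0.18 (SE), with a limma adjusted p of 0.747, and 0.014 without knockout array 2. Within each genotype the SD of Per1 was 0.29 (n = 4) and 0.32 (n = 3), larger than the difference between the genotypes.

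Per2 and Per3 encode the other PERIOD proteins. Per2 read 8.32, 8.32, 8.51 and 8.61 in wild type and 8.10, 8.11 and 8.56 in the knockout. Knockout arrays 1 and 2 lay below every wild-type array and knockout array 3 among the higher ones. The difference was -0.18 ± 0.12 (SE, limma adjusted p = 0.578), and it ranged from -0.33 when knockout array 3 was left out to -0.10 when knockout array 1 was. The other 2 Per2 probe sets differed by -0.014 and -0.13. Per3 read 9.16, 8.86, 9.14 and 9.02 in wild type and 8.96, 8.86 and 9.02 in the knockout, with overlapping groups and a difference of -0.098 ± 0.078 (SE). Of its 6 probe sets 5 were lower and 1, the dimmest, was higher by 0.16.

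The cryptochromes, partners of the PERIOD proteins in repression, moved little. Cry1 read 7.53, 7.54, 7.69 and 7.69 in wild type and 7.49, 7.57 and 7.92 in the knockout. Knockout array 3 was its highest value, and the difference was 0.046 ± 0.11 (SE). Cry2 differed by -0.076 ± 0.058 (SE) and ranged over 0.25 in all, with knockout array 2 lowest at 8.82. Ciart, a repressor of CLOCK and BMAL1 with 3 E-boxes in the stretch shown, read 7.75, 7.66, 7.75 and 7.89 in wild type and 7.77, 7.48 and 7.89 in the knockout. Its groups overlapped, at a difference of -0.051 ± 0.10 (SE). Bhlhe40 and Bhlhe41, E-box repressors also known as DEC proteins, differed by -0.013 ± 0.081 (SE) and -0.23 ± 0.12 (SE). Bhlhe41 was dim, at 5.91 to 6.16 in wild type and 5.62 to 6.09 in the knockout. Cipc, which inhibits CLOCK, differed by -0.0042 ± 0.040 (SE). Timeless, whose product works in DNA replication and binds PERIOD and CRY proteins, differed by -0.10 ± 0.15 (SE). None of these passed (limma, adjusted p from 0.497 to 0.977).

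In the loop around the ROR element, by the brightest probe sets, the REV-ERB genes differed by little and the ROR genes by more, with a wide spread. Nr1d1 read 6.74, 6.83, 6.49 and 6.67 in wild type and 6.65, 6.64 and 6.57 in the knockout, a difference of -0.066 ± 0.088 (SE). Nr1d2 read 11.70, 11.71, 11.70 and 11.72 in wild type and 11.77, 11.63 and 11.72 in the knockout, a difference of -0.0043 ± 0.037 (SE). By this probe set Nr1d2 was among the steadiest genes measured, since 94.1% of all genes had an SD over the 7 arrays at least as large. Its other probe set, which was dim, differed by -0.20 ± 0.13 (SE) with overlapping groups, and the mean of its 2 probe sets by -0.10.

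Rora read 9.63, 10.89, 9.74 and 10.27 in wild type and 9.69, 9.56 and 10.08 in the knockout, and is given array by array, as are Rorb, Hlf, Nfil3 and Usp2, after its values were seen. Wild-type array 2 was highest and wild-type array 4 second, while the other wild-type arrays lay among those of the knockout. The difference was -0.36 ± 0.28 (SE, limma adjusted p = 0.628), and -0.11 without wild-type array 2. Only 1.10% of all genes had an SD over the 7 arrays as large as that of Rora, 0.48. Wild-type array 2 was highest for 6 of its 9 probe sets. Rorb read 8.81, 9.39, 8.65 and 8.82 in wild type and 8.42, 8.59 and 8.74 in the knockout. Its difference of -0.33 ± 0.16 (SE, limma adjusted p = 0.457) was -0.18 without wild-type array 2, and its 2 other probe sets differed by 0.049 and -0.035.

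The activators of the D-box, Dbp, Tef and Hlf, were all lowest on knockout array 2. Dbp read 11.02, 10.82, 11.10 and 10.99 in wild type and 10.98, 10.54 and 11.00 in the knockout. The difference of -0.14 ± 0.11 (SE, limma adjusted p = 0.634) rested on knockout array 2, without which it was 0.0083. Both Dbp probe sets were lowest on that array. Tef read 10.85, 10.75, 10.86 and 10.83 in wild type and 10.83, 10.63 and 10.74 in the knockout. Its difference was -0.090 ± 0.051 (SE, limma adjusted p = 0.513), and it ranged from -0.14 when knockout array 1 was left out to -0.039 when knockout array 2 was. The other 2 Tef probe sets differed by -0.094 and -0.19 and were lowest on knockout array 1. Hlf was the only member with a full CRE, TGACGTCA, which stood in 1.79% of all promoters. It lies next to the start site, at the end of chr11:90390918-90390966 (minus strand). The stretch of Tef before a start site, at chr15:81802506-81802591 (plus strand), carries an E-box instead. Capitals mark the CRE and the E-box.
Hlf: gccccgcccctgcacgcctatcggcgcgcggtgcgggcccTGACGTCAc
Tef: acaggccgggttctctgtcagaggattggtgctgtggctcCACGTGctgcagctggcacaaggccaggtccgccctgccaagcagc

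Hlf, the member with the CRE just shown, read 9.09, 9.54, 9.13 and 9.25 in wild type and 8.96, 8.87 and 9.21 in the knockout. Knockout arrays 1 and 2 were below every wild-type array and knockout array 3 was not. The difference was -0.24 ± 0.12 (SE, limma adjusted p = 0.461). It was -0.15 without wild-type array 2, and the other Hlf probe set differed by -0.30 ± 0.13 (SE). Nfil3, the repressor at the D-box, was the member with the largest positive difference. It read 7.05, 7.27, 7.45 and 7.58 in wild type and 7.45, 7.61 and 7.72 in the knockout, with 2 knockout arrays above every wild-type array. The difference was 0.26 ± 0.13 (SE, limma adjusted p = 0.458), and 0.16 without wild-type array 1.

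The 4 members highest on wild-type array 2 in the largest steps, Rora, Rorb, Hlf and Npas2, were set beside the thalamus and habenula score. Rora and Rorb are also known for their expression in thalamic nuclei. The scores were -0.43, 1.13, -0.18 and 0.28 on the wild-type arrays and -0.41, -0.45 and 0.21 on the knockout arrays. Rora and Hlf had the same 3 arrays at the top in the same order as the score: wild-type array 2, wild-type array 4 and knockout array 3. In Rorb the third was wild-type array 1, and in Npas2 knockout array 3 came before wild-type array 4. Wild-type array 2 is first in each because the genes were chosen for it. Of the 12 markers 11 were lower in the knockout, by a median of -0.42, and 0 passed the threshold (limma), with 1 at an unadjusted p under 0.05. Prkcd, which marks thalamic relay neurons, read 10.29 on wild-type array 2 and 6.73 on wild-type array 1. The part of the thalamic markers in the differences of these genes was not tested. In all, wild-type array 2 held the highest value for 10 of the 28 members (35.7%), against 13.5% of all genes.

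**Figure D3:**
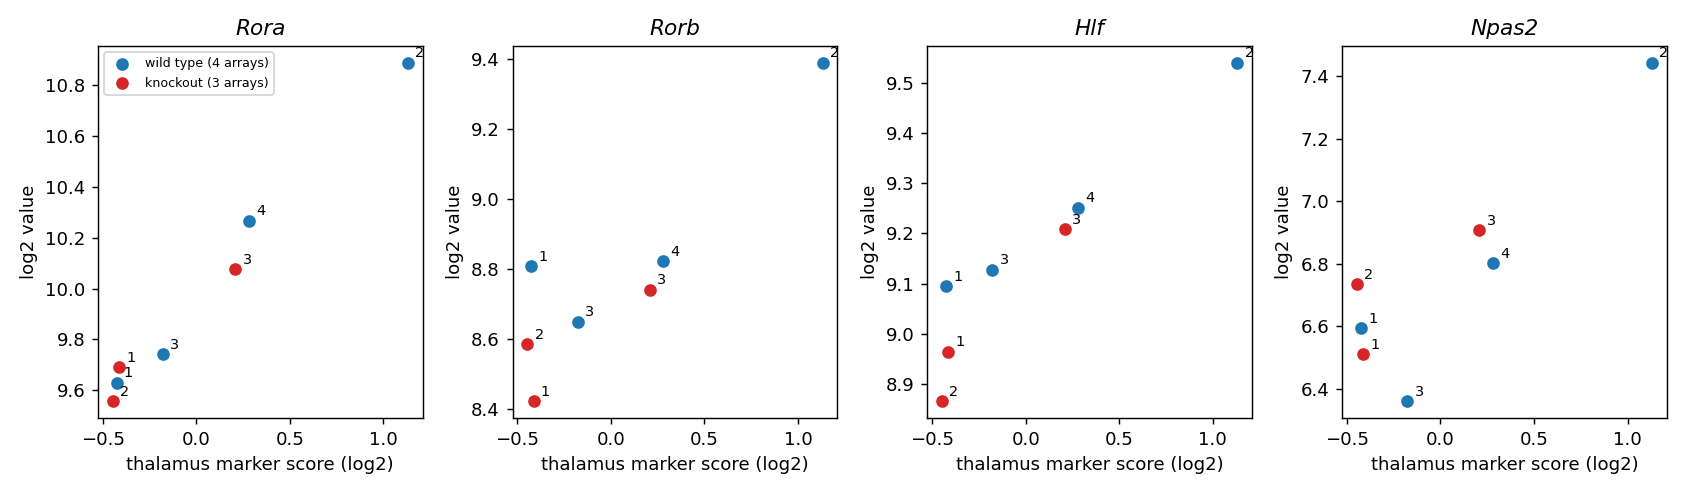
Log2 values of Rora, Rorb, Hlf and Npas2 (vertical axes, a scale for each gene) against the thalamus and habenula marker score of each array (horizontal axis, log2), with wild-type arrays in blue and knockout arrays in red, numbered by replicate. The genes were chosen for their high value on wild-type array 2, which has a score of 1.13. The next arrays by the score, wild-type array 4 and then knockout array 3, come next in Rora and Hlf and not in Rorb and Npas2.

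Among the enzymes that set the stability of the clock proteins, both kinases were the steadiest of the 28 members. Csnk1d and Csnk1e, kinases that mark PERIOD proteins for degradation, differed by 0.0024 ± 0.033 (SE) and -0.030 ± 0.038 (SE). At least 97.6% of all genes had an SD as large as theirs over the 7 arrays. Of the 5 Csnk1d probe sets 4 were lower, and 1 of them, at -0.12 ± 0.046 (SE), had groups that did not overlap. The ubiquitin ligase subunits Fbxl21, which acts on cryptochromes, and Btrc, which acts on PERIOD proteins, differed by -0.012 ± 0.070 (SE) and 0.040 ± 0.057 (SE). Fbxl21 was dim, at 5.60 to 5.75 over all arrays.

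Usp2 and Nampt are clock outputs, a ubiquitin protease and the rate-limiting enzyme of NAD salvage. Usp2 read 8.72, 9.29, 9.16 and 9.31 in wild type and 8.54, 8.91 and 9.31 in the knockout. The arrays numbered 1 were lowest in both groups, and the range within each group exceeded the difference of -0.20 ± 0.19 (SE, limma adjusted p = 0.698). Without knockout array 1 it was -0.012. Both Usp2 probe sets were highest on wild-type array 4 and lowest on knockout array 1. The score of 6 glucocorticoid-induced genes was lowest on the same arrays as Usp2. It was -0.51, -0.051, 0.21 and 0.31 on the wild-type arrays and -0.41, 0.17 and 0.40 on the knockout arrays. The score of 8 immediate early genes was -0.11, -0.63, 0.70 and 0.078 on the wild-type arrays. On the knockout arrays that score was 0.55, -0.40 and -0.15. The part of either list in the spread of Usp2, Per1 and Per2 was not tested. Nampt differed by -0.062 ± 0.060 (SE), and its 3 probe sets differed in sign, from -0.16 to 0.094.

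Co-variation among the clock genes was then read across the arrays, without an hour of dissection to order them. In a running clock, genes of 1 phase rise and fall together and genes of the opposite phase do the reverse. For 15 pairs of genes with a textbook relation, Pearson's r and Spearman's rho were computed over the 7 arrays with exact two-sided permutation tests over all pairings, adjusted over the 15 pairs. All arrays hold dissected hypothalamus and were processed with RMA, whose settings are not given. The part of dissection and normalization in the co-variation was not tested. By r, 0 pairs passed the threshold, and 5 had an unadjusted exact p under 0.05. Of 9 pairs usually in phase, 7 had a positive r, and of 6 pairs usually in opposite phase, 4 had a negative r. For each of those 4, 24.6% to 48.9% of all genes had an r with the first gene at least as low. Of the 7 positive pairs, Nr1d1 and Nr1d2 had a share of genes with as high an r in that same range. The sign counts were not compared with those of other gene pairs, so they do not tell clock phase from chance.

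The closest relations among pairs usually in phase were those of Dbp and of the Per genes. Dbp and Tef gave r = 0.91 (exact permutation p = 0.0131, adjusted 0.0843) and rho = 0.79 (exact permutation p = 0.048, adjusted 0.33). An r with Dbp as high as that of Tef was reached by 0.357% of all genes. For Per3 that share was 1.86%, and for Ciart 1.20%. The r was 0.46 without wild-type array 2 and knockout array 2, the arrays farthest from the median of Dbp, and 0.67 without knockout array 2 alone. Dbp and Per3 gave r = 0.81 (exact permutation p = 0.00496, adjusted 0.0744) and rho = 0.96 (exact permutation p = 0.00278, adjusted 0.0417). Theirs was the only rank correlation of the 15 that passed, and the r was 0.73 without the same 2 arrays. With the mean of all probe sets in place of the brightest it was -0.12, and that of Dbp and Tef was 0.42. Dbp and Ciart gave r = 0.84 (exact permutation p = 0.03, adjusted 0.0899) and rho = 0.43 (exact permutation p = 0.354, adjusted 0.663). That relation rested on wild-type array 2 and knockout array 2, without which r was -0.48.

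Per1 and Per2 gave r = 0.83 (exact permutation p = 0.026, adjusted 0.0899) and rho = 0.75 (exact permutation p = 0.0663, adjusted 0.33). The r was 0.65 without wild-type array 4 and knockout array 2, 0.98 without knockout array 1 and 0.82 after the genotype means were taken out. Of all genes, 1.05% had an r with Per1 as high as that of Per2. Both genes were high on wild-type arrays 3 and 4 and knockout array 3 and low on the other 4 arrays, so that each genotype held high and low arrays. Per2 and Per3 gave a lower r of 0.51 (exact permutation p = 0.255, adjusted 0.478), with rho = 0.36 (exact permutation p = 0.444, adjusted 0.667). As high an r with Per2 was reached by 13.9% of all genes. The REV-ERB pair Nr1d1 and Nr1d2 gave r = 0.094 (exact permutation p = 0.863, adjusted 0.919) and rho = 0.25 (exact permutation p = 0.595, adjusted 0.686). Nr1d1 and Dbp gave r = -0.30 (exact permutation p = 0.498, adjusted 0.64) and rho = -0.36 (exact permutation p = 0.444, adjusted 0.667), against the usual direction.

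**Figure D4:**
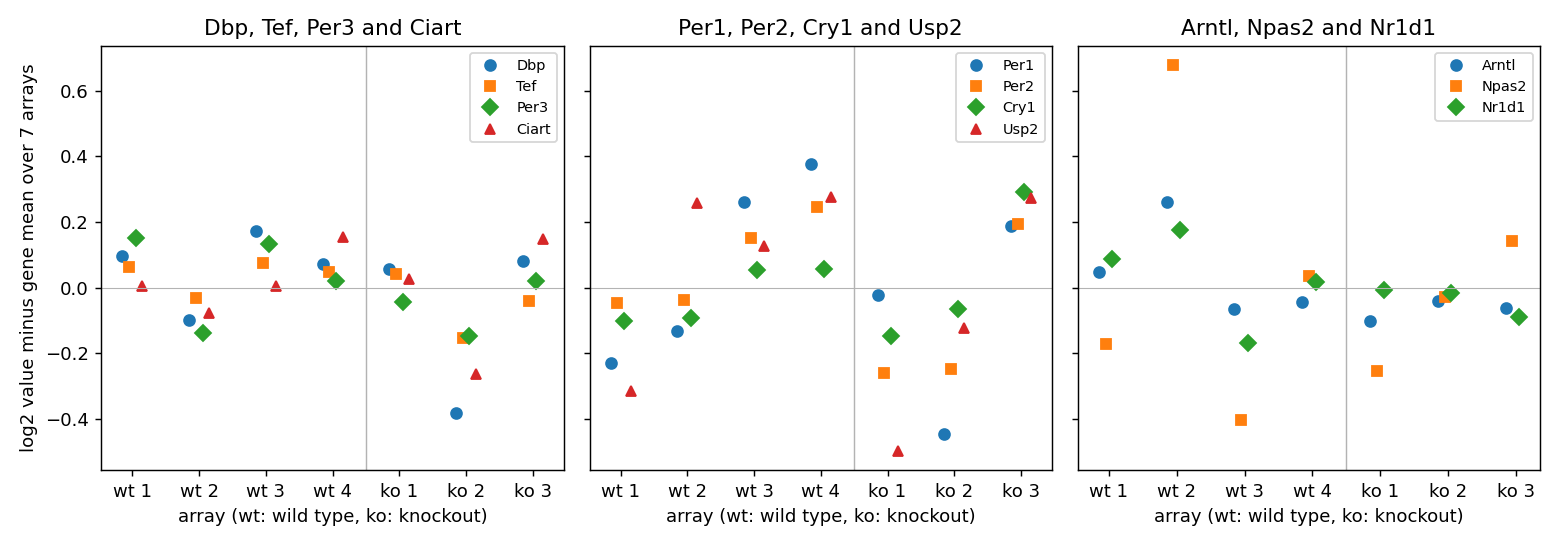
Log2 values of 11 clock genes by array (vertical axis, each gene's mean over the 7 arrays subtracted), in 3 panels. Dbp, Tef, Per3 and Ciart were all lowest on knockout array 2, Per1 and Per2 were high on wild-type arrays 3 and 4 and knockout array 3, and Arntl, Npas2 and Nr1d1 were all highest on wild-type array 2.

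The pairs with Arntl or Npas2 gave no r that passed. Arntl and Npas2, usually in phase, gave r = 0.81 (exact permutation p = 0.0655, adjusted 0.164) and rho = 0.61 (exact permutation p = 0.167, adjusted 0.5). Without wild-type array 2 that r was 0.079. Over all 7 arrays, 2.08% of all genes had an r with Arntl as high as that of Npas2. Arntl and Nr1d1, usually in opposite phase, gave a positive r of 0.80 (exact permutation p = 0.0169, adjusted 0.0843) and rho = 0.71 (exact permutation p = 0.0881, adjusted 0.33). The r was 0.60 without wild-type array 2, the lowest with 1 array left out, and 0.068 without wild-type arrays 1 and 2, the farthest from the median of Arntl. Npas2 and Nr1d1 gave 0.69 (exact permutation p = 0.0875, adjusted 0.188), and -0.62 without wild-type arrays 2 and 3. Arntl and Dbp gave r = -0.22 (exact permutation p = 0.555, adjusted 0.64). With 1 array left out it ran from -0.81 without knockout array 2 to -0.027 without wild-type array 2. Arntl and Per3 gave -0.34 (exact permutation p = 0.524, adjusted 0.64), and Arntl and Per2 gave -0.060 (exact permutation p = 0.919, adjusted 0.919). Npas2 and Dbp gave -0.36 (exact permutation p = 0.384, adjusted 0.62). With 1 array left out it ran from -0.91 without knockout array 2 to -0.20 without wild-type array 3. Arntl and Clock, usually in phase, gave -0.36 (exact permutation p = 0.413, adjusted 0.62), and 0.18 within genotypes. For the last 6 pairs rho lay between -0.46 and 0.46, with exact permutation p-values from 0.302 to 0.963 and adjusted values from 0.648 to 0.963. An opposition of Arntl or Npas2 to Dbp, Nr1d1, Per2 or Per3 did not pass in any of the 6 pairs.

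**Figure D5:**
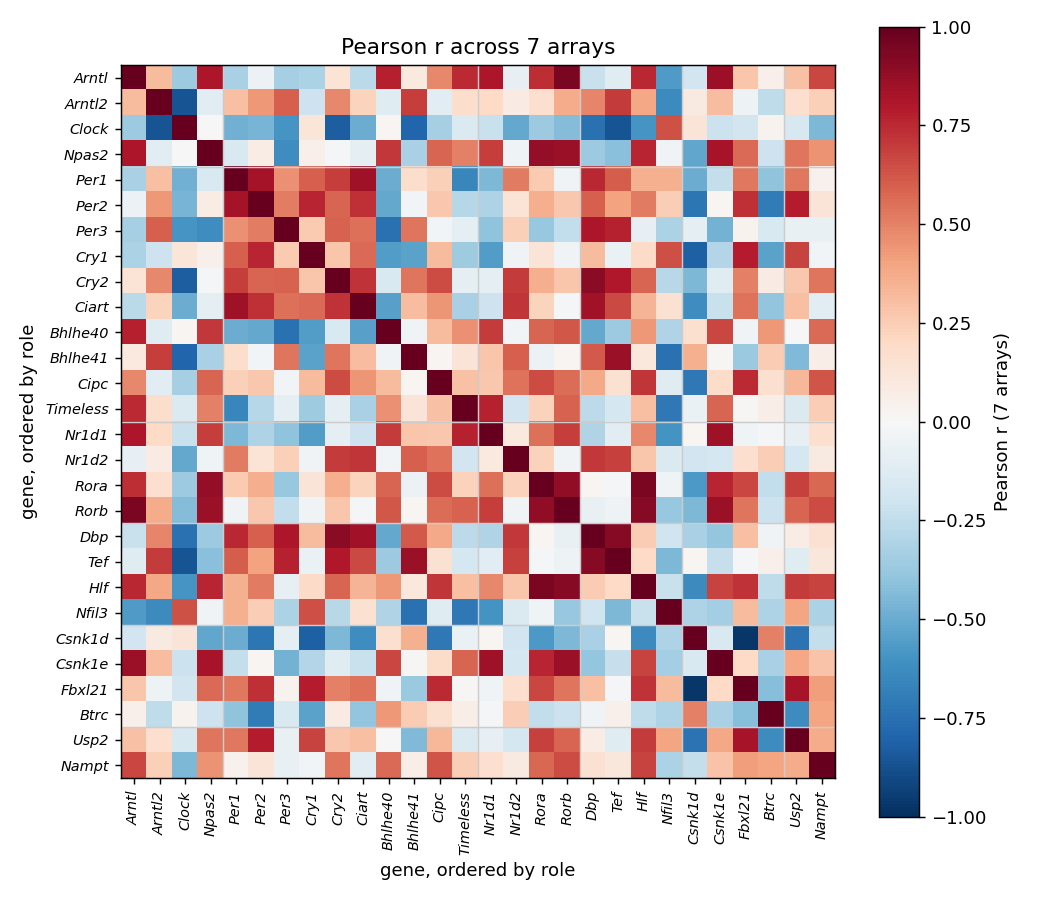
Pearson r across the 7 arrays for each pair of the 28 clock genes, ordered by role on both axes, from -1 (blue) to 1 (red). Positive values join Per1, Per2, Per3, Cry2, Ciart, Dbp and Tef (0.40 to 0.91). Others join Arntl, Npas2, Nr1d1, Rora, Rorb and Hlf, which are among the 10 members that were highest on wild-type array 2. Csnk1e, also among those 10, had an r of 0.85 with Arntl and 0.87 with Rorb.

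Knockout array 2 gave the lowest value for 11 of the 28 members (39.3%), against 15.5% of all genes. These were Per1, Per3, Cry2, Nr1d2, Dbp, Tef, Hlf, Bhlhe41, Rora, Ciart and Cipc. On the same array Clock and Csnk1d were highest. Of the suprachiasmatic markers Vip, a peptide of the master clock, varied widely. It read 9.12, 8.51, 8.40 and 8.58 in wild type and 6.80, 7.82 and 9.21 in the knockout. The score of 12 suprachiasmatic markers ran from 0.029 to 0.085 on the wild-type arrays and from -0.083 to 0.0061 on the knockout arrays, so it did not overlap. Of these 12 markers 7 had a negative difference, 0 passed and 1, Zfhx3, had an unadjusted p under 0.05 (limma). Other marker lists separated in the same way. The score of 7 neuron markers ran from 0.017 to 0.088 in wild type and from -0.070 to -0.027 in the knockout, and that of 7 choroid plexus markers was also lower on every knockout array. The score of 6 astrocyte markers was higher on every knockout array, though the groups nearly touched. It ran from -0.054 to 0.011 in wild type and from 0.012 to 0.057 in the knockout. The part of these markers in the values of the clock genes was not tested.

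Of 2 lists of further clock genes, none of the measured members passed the threshold. Among 25 genes of the clock machinery (kinases, ligases and chromatin cofactors) 20 were measured. Of these 6 had a positive and 14 a negative difference, and the median was -0.035. An unadjusted p under 0.05 was reached by 2 (limma, 11.7% of all genes). Groups did not overlap for 5, against 12.1% of all genes: Nono, Wdr5 and Ddb1 higher, Kdm5a and Fbxw11 lower. Kdm5a, a histone demethylase that supports CLOCK and BMAL1, read 8.54, 8.59, 8.73 and 8.59 in wild type and 8.45, 8.39 and 8.46 in the knockout. The difference was -0.18 ± 0.057 (SE, limma adjusted p = 0.316), and -0.035 with the mean of all its probe sets. Nono, an RNA-binding partner of the PERIOD proteins, read 11.88, 11.92, 11.87 and 11.88 in wild type and 11.93, 11.98 and 11.95 in the knockout. It differed by 0.065 ± 0.028 (SE, limma adjusted p = 0.417), and by 0.017 with the mean of all its probe sets. The 7 common clock outputs were all measured, with 5 positive and 2 negative differences, a median of 0.028 and 0 at an unadjusted p under 0.05. Tsc22d3 and Cdkn1a, which glucocorticoids also induce, varied most there, with an SD over the 7 arrays of 0.35 and 0.49.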

How the data were processed

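The 7 arrays carried biotin-labelled RNA of mouse hypothalamus, 1 array per sample. The deposited table holds log2 expression. The submitters' processing notes name RMA, affy and R 2.10.0 with no further settings. RMA makes no detection calls, which leaves dim probe sets hard to separate from background, and the number of arrays limits the precision. Of 45101 probe sets, 64 controls were left out, and 34945 carried 1 gene symbol, 932 several and 9160 none in the platform annotation. The gene-level fit held 18193 genes, each with its brightest probe set. Its median SE was 0.073.

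Groups were compared with limma 3.58.1 in R 4.3.3 (lmFit, eBayes with trend). The fit was tested on simulated data. Correlations used exact permutations in Python 3.11.15, and figures matplotlib 3.10.9. Members and lists were chosen with earlier results of these data known. Values in every array are given for a fixed core set, for members with an unadjusted p under 0.05 or non-overlapping groups, and for Rora, Rorb, Hlf, Nfil3 and Usp2, chosen after their values were seen. Further clock genes are named for an unadjusted p under 0.05 or non-overlapping groups, and Tsc22d3 and Cdkn1a for their SD. RefSeq promoters leave out chromosome 18. Arrays numbered 1 to 3 were checked for pairing: deviations from group means correlated at 0.32, 0.077 and 0.18 for equal numbers. Wild-type arrays 1 and 3 correlated best with the knockout array of their number, and wild-type array 2 with knockout array 3. By Xist, arrays of equal number were also of the same sex. The check cannot decide whether the numbers pair samples. The labels state no pairing, so the main fit held no block. Alternatives covered the variance model, array weights, normalization, dim genes, the probe set choice, sex, the replicate number and each array left out.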

Additional observations from a re-analysis of the deposited data

Results flagged for a closer look

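One of 28 members had a wild-type array that stood apart from the other 3 by Dixon's criterion, where chance gives about 1 in 20. It was Bhlhe40, which read 9.98 on wild-type array 2 against 9.66 to 9.68 on the others. Its difference was 0.063 without that array.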

How the results depend on the processing

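Of the 28 members, 15 kept the sign of their difference in every alternative that could be fitted, and 13 did not. The share of all genes that kept their sign was not computed. Members past the threshold numbered 1 (Arntl2) with array weights and 0 to 1 with 1 array left out. Members with an unadjusted p under 0.05 numbered 1 with dim genes dropped, 5 with the replicate number as a block over arrays 1 to 3 (3 on those arrays without it), and 1 to 5 with 1 array left out. The replicate block changed no call at the threshold, and the median of the members was -0.083 with it and without it on those arrays. Over all genes, the share with an unadjusted p under 0.05 was 14.5% with dim genes dropped and 11.4% with the replicate block. With 1 array left out it was 8.13% to 14.5%. Members with groups that did not overlap numbered 1 with dim genes dropped (14.6% of all genes) and 2 to 7 with 1 array left out (15.6% to 22.3%). With wild-type arrays 2 and 3 left out together, chosen after seeing the data, they numbered 6 (24.6%). The median difference ran from -0.11 to -0.039 with 1 array left out. Dropping dim genes removes Arntl2 and 6 other members. For the remaining reversals the cause was not tested.

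With 1 array left out the difference ran from -0.042 to 0.063 for Bhlhe40, -0.0049 to 0.073 for Btrc, -0.14 to 0.067 for Ciart, -0.032 to 0.027 for Cipc, -0.086 to 0.13 for Cry1, -0.012 to 0.031 for Csnk1d, -0.22 to 0.0083 for Dbp, -0.063 to 0.013 for Fbxl21, -0.23 to 0.13 for Npas2, -0.037 to 0.034 for Nr1d2 and -0.30 to 0.014 for Per1. Without wild-type arrays 2 and 3 it was 0.020 for Npas2, 0.061 for Bhlhe40, 0.0039 for Fbxl21, 0.021 for Nampt and 0.015 for Cipc. Quantile normalization gave 0.011 for Nr1d2, 0.018 for Bhlhe40 and 0.014 for Cipc, array weights 0.0039 for Bhlhe40, and sex as a covariate 0.0030 for Nr1d2. The mean of all probe sets gave -0.060 for Csnk1d and 0.012 for Csnk1e, and the replicate block -0.00069 for Csnk1d.

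Of the 15 pairs, 0 to 3 passed by r with 1 array left out, the highest count being that without knockout array 1. The r of Arntl and Per2 then ran from -0.33 to 0.040 and that of Arntl and Per3 from -0.54 to 0.46. Deviations from genotype means gave 0.18 for Arntl and Clock. The mean of all probe sets gave -0.31 for Per2 and Per3, -0.12 for Dbp and Per3, 0.39 for Arntl and Clock and 0.49 for Arntl and Per3. Without the 2 arrays farthest from the median of the first gene, r was 0.17 for Nr1d1 and Dbp, -0.48 for Dbp and Ciart, 0.26 for Arntl and Clock, 0.34 for Arntl and Per2 and -0.62 for Npas2 and Nr1d1.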

Other observations

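The genes next to Arntl2 on chromosome 6 were read after its values were seen, in the order of the RefSeq gene table. Of the 5 nearest measured genes on each side, 3 had groups that did not overlap (12.1% of all genes) and an unadjusted p under 0.05 (limma, 11.7% of all genes), and they differed in sign. Stk38l, a kinase gene next to Arntl2, read 8.57, 8.63, 8.58 and 8.50 in wild type and 8.27, 8.44 and 8.37 in the knockout, a difference of -0.21 ± 0.057 (SE, limma adjusted p = 0.272). Tm7sf3, the third on that side, was higher in the knockout by 0.18 ± 0.050 (SE, limma adjusted p = 0.272). Mrps35, a mitochondrial ribosomal protein gene and the fifth on the other side, was higher by 0.29 ± 0.073 (SE, limma adjusted p = 0.267). The other 7 differed by -0.11 to 0.16 with overlapping groups.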
